A study of Mus musculus with 6 samples.

Results

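The genes described are 6 growth factors of the EGF type, Hbegf, Ereg, Areg, Btc, Tgfa and Nrg1, and 3 receptors of the ErbB family, Egfr, Erbb2 and Erbb3. They were chosen by name and are 9 of the 22162 genes in the table, each with 1 entry. Poly(A) RNA was sequenced from mouse skin fibroblasts (MSFs) of the FVB/N strain, isolated from the dorsal skin of a female FASST mouse of unstated age. Cells of both groups carried the same alleles, a tamoxifen-inducible Cre-ERT2 driven by the pro-alpha 2(I) collagen promoter and a lox-stop-lox p27Kip1 allele at ROSA26, and both were kept in low oxygen. The 3 TAM samples received 10 µM tamoxifen, which switches p27Kip1 on, for 48 h and are labelled senescent, and the 3 EtOH samples received the ethanol vehicle and are labelled non-senescent. When RNA was collected after treatment is not stated in the study's methods. Tamoxifen-treated cells without the p27Kip1 allele were not analysed here, so an effect of the drug and an effect of p27Kip1 cannot be told apart. The MSFs were a line from 1 mouse and nothing states that the replicates were separate cultures, so the p-values measure the spread between these samples, which may be technical.

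EGF-type ligands are made as membrane-anchored precursors and are released by metalloproteases such as ADAM17. Amphiregulin (Areg) and TGF-alpha (Tgfa) bind EGFR, heparin-binding EGF (Hbegf), epiregulin (Ereg) and betacellulin (Btc) bind EGFR and ErbB4, and neuregulin 1 (Nrg1) binds ErbB3 and ErbB4. ErbB2 has no known ligand and serves as the partner of the other receptors. The receptors signal through RAS and ERK, which switch on early genes such as Fos and Egr1, feedback inhibitors such as the DUSP phosphatases and the sprouty proteins, and several of the EGF-type ligands. In skin these ligands are best known as growth factors for keratinocytes and as part of the response to wounding.

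The MSFs had abundant Egfr, intermediate levels of Nrg1, Hbegf, Ereg and Erbb2, and Areg, Btc, Tgfa and Erbb3 close to 0. None of the members changed with TAM at a limma adjusted p under 0.05. Ereg was higher with TAM in each of the 3 pairs of samples that share a replicate number, and the other tested members differed in direction between pairs. The widest differences of Hbegf and Ereg lay between replicate numbers, with replicate 2 of both groups above the other 4 samples, and Nrg1 was lowest in those same samples.

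The promoters of Areg and Egfr are shown. Areg was chosen as a ligand beside Ereg in the genome with the same excess in replicate 2, at low counts. Egfr was chosen as the receptor gene with the highest level. Btc, which lies further from Ereg, was also highest in replicate 2, at low counts. Epgn, 39.4 kb from Ereg on its other side, was highest in TAM replicate 3, at 5.70 normalized counts. RefSeq promoters on GRCm38.p6 were found for 5 of the 9 members, Areg, Btc, Tgfa, Egfr and Erbb2. Each sequence holds the 250 bases before the transcription start on the plus strand, 5′ to 3′, at chr5:91139349-91139598 for Areg and at chr11:16751953-16752202 for Egfr. Capitals mark the letters of a cAMP response element (TGACGTCA), a GC box (GGGCGG, read as CCGCCC from the other strand) and a TATA box (TATAAA).
Areg: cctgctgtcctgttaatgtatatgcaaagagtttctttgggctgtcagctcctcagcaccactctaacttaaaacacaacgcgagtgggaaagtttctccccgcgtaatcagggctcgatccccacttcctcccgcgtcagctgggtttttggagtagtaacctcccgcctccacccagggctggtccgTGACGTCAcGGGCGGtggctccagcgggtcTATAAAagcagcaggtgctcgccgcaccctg
Egfr: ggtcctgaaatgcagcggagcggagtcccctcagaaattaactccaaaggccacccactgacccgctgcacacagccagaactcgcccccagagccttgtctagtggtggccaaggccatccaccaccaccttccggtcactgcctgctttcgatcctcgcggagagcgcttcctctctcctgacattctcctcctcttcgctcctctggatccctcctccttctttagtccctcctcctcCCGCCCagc

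All 3 motifs are in the Areg promoter and do not overlap each other, the cAMP response element from 61 to 54, the GC box from 52 to 47 and the TATA box from 31 to 26 bases before the start. Both strands were searched in 32851 promoters of this length, of which 1.55% hold the cAMP response element, 32.7% the GC box and 12.4% the TATA box. The Egfr promoter holds the GC box alone, on the minus strand from 9 to 4 bases before the start. Tgfa has 2 GC boxes, and the letters of the 3 motifs are not in the windows of Btc and Erbb2. A match describes letters and not a site in use.

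The sums of normalized counts lay between 14952367 and 17314953 per sample. Cdkn1b, the gene of p27Kip1, had 1427, 3074 and 1853 normalized counts in EtOH replicates 1 to 3 and 1699, 1520 and 1630 in TAM replicates 1 to 3 (log2 difference −0.32, limma adjusted p = 0.677). Its groups overlapped, and it is not stated whether reads from the transgene are counted there, so it does not check the labels. The cells had the markers of fibroblasts, with none of 9 under 16.2 normalized counts (1 c.p.m.) in every sample and sums of 1531134 to 1679926 normalized counts in EtOH and 684804 to 1127044 in TAM samples. These sums were thus lower with TAM. Col1a1, Col1a2, Col3a1, Dcn and Lum lay below EtOH in every TAM sample, Thy1 lay above, and Pdgfra, Pdgfrb and Vim overlapped. Keratinocyte markers, of interest because keratinocytes make EGF-type ligands, summed to 81.1 to 92.2 in EtOH and 65.7 to 126 in TAM samples, with 5 of 8 (Krt5, Krt14, Krt1, Cdh1 and Epcam) under 1 c.p.m. in every sample. Of the others, Trp63 (24.85 to 25.8 in EtOH, 2.50 to 7.15 in TAM samples) lay below EtOH in every TAM sample. Dsp (2.89 to 12.4 and 4.22 to 69.5) and Krt10 (41.0 to 57.6 and 41.9 to 59.1) overlapped. The other lists had low sums in all samples, and the sums of the groups overlapped for 6 melanocyte markers (134 to 255 in EtOH, 141 to 190.1 in TAM samples) and 6 macrophage markers (176 to 461 and 270 to 466). The macrophage markers Csf1r (73.4 to 75.7 in EtOH, 90.6 to 226 in TAM samples) and Lyz2 (35.25 to 62.9 and 103 to 159) lay above EtOH in every TAM sample. Cd68 overlapped, with 352 normalized counts in EtOH replicate 2, and Emr1, Itgam and Ptprc were under 1 c.p.m. in every sample. TAM sums also lay below EtOH sums for 5 Schwann cell markers (162 to 293 in EtOH, 57.7 to 151 in TAM samples) and 5 endothelial markers (85.9 to 241 and 15.7 to 35.1). Of these, 3 Schwann cell markers (Foxd3, S100b and Sox10) and 3 endothelial markers (Cdh5, Emcn and Pecam1) were under 1 c.p.m. in every sample. Most of the endothelial difference was in Kdr, with 205, 68.7 and 116 normalized counts in EtOH replicates 1 to 3 and 4.84, 7.53 and 14.0 in TAM replicates 1 to 3. Most of the Schwann cell sum was Mbp, with 138 to 259 normalized counts in EtOH and 43.5 to 132 in TAM samples. The part of these marker differences in the members' values was not tested. In bulk samples fewer cells of a type and less RNA per cell cannot be told apart.

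Per kilobase of exon, Egfr stood first with a mean over the 6 samples of 1735 normalized counts per kb, between 1414 and 2425. Nrg1 followed with 231 normalized counts per kb, and its range of 95.7 to 381 did not reach that of Egfr. Hbegf had a mean of 156 (48.8 to 469), Ereg of 71.8 (3.82 to 247) and Erbb2 of 70.6 (51.6 to 93.4) normalized counts per kb. Neighbours in this order from Nrg1 to Erbb2 overlapped in range. Areg, with 4.84 normalized counts per kb, stayed below Erbb2 in all samples (0 to 14.4). Btc with 1.25, Erbb3 with 0.841 and Tgfa with 0.0399 normalized counts per kb overlapped with their neighbours. The interval of Egfr in the table ends 30235 bases before the annotated gene does. Over all annotated Egfr exons its mean would be 483 normalized counts per kb, still first in the order of means. The interval of Nrg1 is also shorter than its annotation, and over all its exons its mean would be 189 normalized counts per kb. Ranges over all annotated exons were not compared, so a gap between Egfr and the other members is not shown on that basis.

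**Figure D1:**
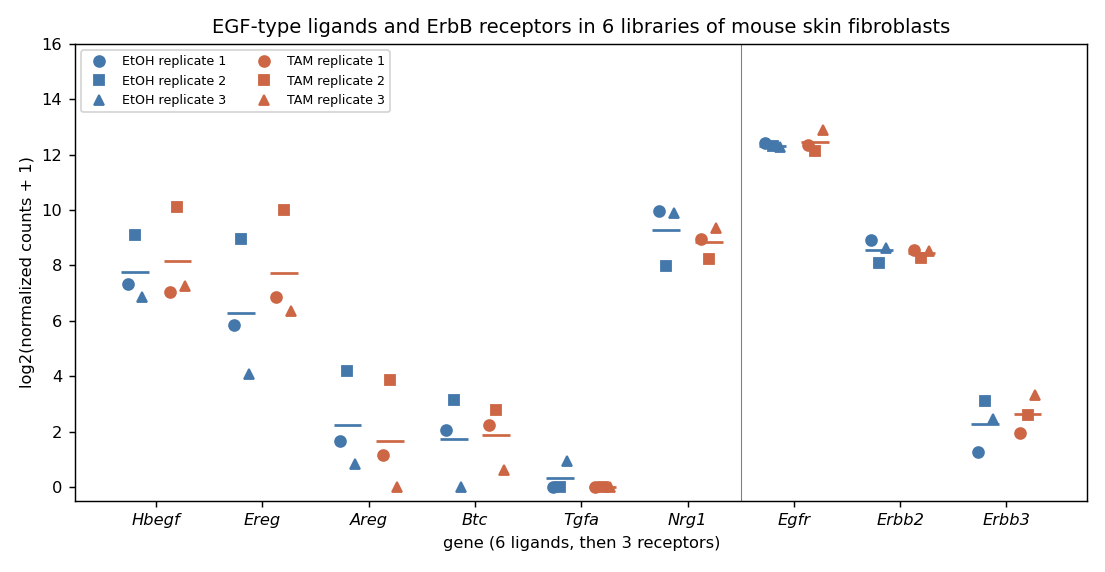
Log2(normalized counts + 1) of the 9 members in each of the 6 samples, EtOH in blue and TAM in orange, with marker shape for the replicate number and a bar for the group mean. The squares of replicate 2 are highest for Hbegf, Ereg, Areg and Btc and lowest for Nrg1 and Erbb2, and Egfr lies above all other members.

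Ereg (ENSMUSG00000029377) lies on chromosome 5 of mm9 from 91503643 to 91522675 on the plus strand, in a row of EGF-type ligand genes that covers 375 kb from Epgn to Btc. It had 56.8, 492 and 15.8 normalized counts in EtOH replicates 1 to 3 and 114, 1022 and 81.7 in TAM replicates 1 to 3. The replicate 2 samples were highest in both groups, and the groups overlapped because EtOH replicate 2 was above TAM replicates 1 and 3. Within same-numbered pairs TAM was above EtOH by 1.00, 1.05 and 2.30 on the log2(normalized counts + 1) scale. The mean log2 difference was 1.45 (SE 1.38, 95% interval −1.79 to 4.69, limma adjusted p = 0.696). When the replicate number was fitted as a block the SE was 0.33 and the interval 0.61 to 2.29, and Ereg did not pass the test over all genes (limma adjusted p = 0.131).

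Areg (ENSMUSG00000029378) begins 46.0 kb after Ereg, from 91568641 to 91577458 on the plus strand. It had 2.15, 17.3 and 0.78 normalized counts in EtOH replicates 1 to 3 and 1.24, 13.4 and 0 in TAM replicates 1 to 3. Replicate 2 was again the highest sample of each group, and it was the TAM sample that was lower in each pair, by contrast with Ereg. Only 1 sample reached 1 c.p.m. so Areg was not tested with the other genes. In a limma fit without that minimum its log2 difference was −0.56 (SE 1.16, adjusted p = 0.864), and with the block the SE was 0.40 (adjusted p = 0.562).

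Btc (ENSMUSG00000082361), the last gene of the row, lies 208.8 kb after Areg from 91786287 to 91831939 on the minus strand. It had 3.12, 7.71 and 0 normalized counts in EtOH replicates 1 to 3 and 3.77, 5.85 and 0.54 in TAM replicates 1 to 3. The replicate 2 samples were highest in both groups, at low counts. The groups overlapped and Btc was not tested. Over the 9 members, transcript stretches matched other places in the genome at 95% identity or more for Btc (1 place, 4.83% of the transcript) and Egfr (50 matches, 1.32%). Counts in such stretches are less certain. Whether the Egfr stretches lie in its listed interval, which is shorter than the annotated gene, was not checked.

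Hbegf (ENSMUSG00000024486) lies on chromosome 18 from 36664583 to 36675459 on the minus strand. It had 160.1, 552 and 116 normalized counts in EtOH replicates 1 to 3 and 131, 1112 and 153 in TAM replicates 1 to 3. Apart from the replicate 2 samples, both groups lay between 116 and 160.1. The pairs differed in direction, with TAM minus EtOH at −0.28, 1.01 and 0.40 on the log2 scale. The mean log2 difference was 0.37 (SE 0.91, 95% interval −1.78 to 2.53, limma adjusted p = 0.897), and the block gave an interval of −0.36 to 1.11 (adjusted p = 0.570).

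Tgfa (ENSMUSG00000029999, chromosome 6, 86145420 to 86225151, plus strand) was listed at 0 in 5 samples and at 0.90 normalized counts in EtOH replicate 3. It was not tested, and a difference was not detectable at this depth.

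Nrg1 (ENSMUSG00000062991) is listed on chromosome 8 from 32928500 to 33028675 on the minus strand, 90906 bases shorter than its annotation. It had 1002, 252 and 948 normalized counts in EtOH replicates 1 to 3 and 490, 297 and 657 in TAM replicates 1 to 3. Replicate 2 was the lowest sample of each group, the reverse of Hbegf and Ereg, and the groups overlapped through EtOH replicate 2. TAM minus EtOH was −1.03, 0.24 and −0.53 on the log2 scale in the pairs. The mean log2 difference was −0.44 (SE 0.57, 95% interval −1.77 to 0.89, limma adjusted p = 0.784), and the block gave an interval of −1.14 to 0.26 (adjusted p = 0.488).

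Egfr (ENSMUSG00000020122), the receptor of most ligands above, is listed on chromosome 11 from 16652206 to 16787926 on the plus strand. It had 5461, 5052 and 4925 normalized counts in EtOH replicates 1 to 3 and 5267, 4456 and 7645 in TAM replicates 1 to 3. TAM held both the highest and the lowest sample, and replicate 2 did not stand apart. The mean log2 difference was 0.13 (SE 0.23, 95% interval −0.42 to 0.68, limma adjusted p = 0.850), and the block gave an interval of −0.44 to 0.71 (adjusted p = 0.809).

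Erbb2 (ENSMUSG00000062312, chromosome 11, 98273784 to 98299030, plus strand), the partner receptor, had 487, 269 and 399 normalized counts in EtOH replicates 1 to 3 and 380 and 305 in TAM replicates 1 and 2, with 369 in TAM replicate 3. The replicate 2 samples were lowest in both groups and the TAM values lay within the EtOH range. The mean log2 difference was −0.10 (SE 0.25, 95% interval −0.69 to 0.50, limma adjusted p = 0.906), and the block gave an interval of −0.58 to 0.39 (adjusted p = 0.841). Erbb3 (ENSMUSG00000018166, chromosome 10, 128004579 to 128026708, minus strand), the receptor of neuregulins, had 1.40, 7.67 and 4.42 normalized counts in EtOH replicates 1 to 3 and 2.86, 5.01 and 9.01 in TAM replicates 1 to 3. Its groups overlapped and it was not tested.

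**Figure D2:**
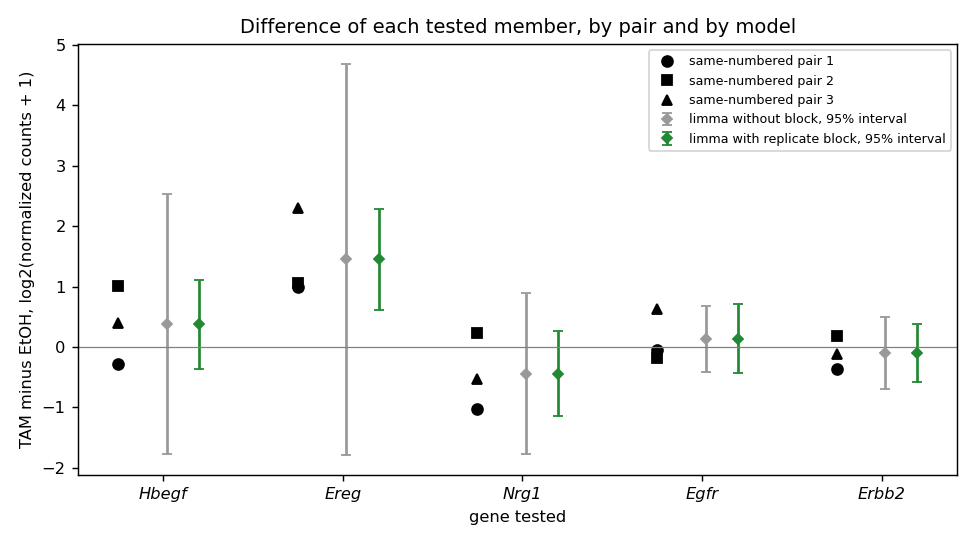
TAM minus EtOH in log2(normalized counts + 1) for the 5 tested members, with black markers for the 3 same-numbered pairs and diamonds with 95% intervals for limma without (grey) and with (green) the replicate block. For Ereg all 3 pairs are above 0 and the block narrows the interval to 0.61 to 2.29, while the intervals of the other 4 include 0 in both fits.

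Of the 9 members, 5 passed the filter of 1 c.p.m. in at least 3 samples and none of them was called, against 0.244% of the 11877 genes tested. With the replicate block none was called either, against 1.62% of all genes. At an unadjusted p under 0.05 none of the 5 passed without the block, against 13.4% of all genes, and 1 (Ereg) passed with it, against 17.0%. In none of the 5 were the TAM and EtOH samples apart, while 20.6% of all genes had groups that did not overlap. Ereg alone kept its direction in all 3 pairs, as did 41.9% of all genes.

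In 4 of the 5 tested members both replicate 2 samples lay outside the range of the other 4, above it for Hbegf and Ereg and below it for Nrg1 and Erbb2, against 24.5% of all genes. In such a gene the TAM and EtOH samples must overlap, so their overlap in these 4 members is not a separate result. Ereg in replicate 2 was 13.6-fold the mean of the other EtOH samples and 10.4-fold the mean of the other TAM samples. For Hbegf these ratios were 4.00 and 7.81, and for Nrg1 0.258 and 0.519. A test of the replicate number in the block fit, added after the values were seen, gave an unadjusted p under 0.05 for 3 members (Ereg, Hbegf and Nrg1), against 12.2% of all genes, and none passed after adjustment (limma adjusted p = 0.139, 0.186 and 0.266). Without both replicate 2 samples, a setting also added afterwards, the log2 differences were 1.65 for Ereg (SE 0.63, adjusted p = 0.245), 0.06 for Hbegf (SE 0.24, adjusted p = 0.915) and −0.78 for Nrg1 (SE 0.18, adjusted p = 0.135). What distinguishes the replicate 2 samples was not tested.

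The rest of the pathway was described from 83 listed genes, of which 75 were tested and none was called in either fit. Of the 75, 33 had both replicate 2 samples outside the other 4, 28 above and 5 below, or 44.0%. The share was highest in the list of transcription factors and early genes and in that of ERK feedback inhibitors. ERK activity was not measured. Of 17 transcription factors and early genes, 15 were highest in both replicate 2 samples (88.2%), all but Egr2 and Elk1. TAM and EtOH were apart in none of the 17, which for those 15 follows from the replicate pattern. The margin was small for some, with Myc at 1397.6 normalized counts in EtOH replicate 2 and 1392.5 in EtOH replicate 1. Fosb had 293 normalized counts in EtOH replicate 2, but 47.7 in TAM replicate 2 and 42.2 in TAM replicate 3. Of 11 feedback inhibitors, 6 were highest in both replicate 2 samples (54.5%), namely Spry4, Spred1, Spred3, Dusp4, Dusp5 and Dusp6. Among sheddases and their regulators the share was 20.0% of 10 genes, among adaptors and transducers 31.8% of 22 and among turnover genes and inhibitors 23.1% of 13. The median log2 differences between TAM and EtOH were 0.09 for early genes, 0.06 for feedback inhibitors, 0.20 for sheddases, −0.003 for adaptors and 0.09 for turnover genes, against −0.03 over all genes.

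**Figure D3:**
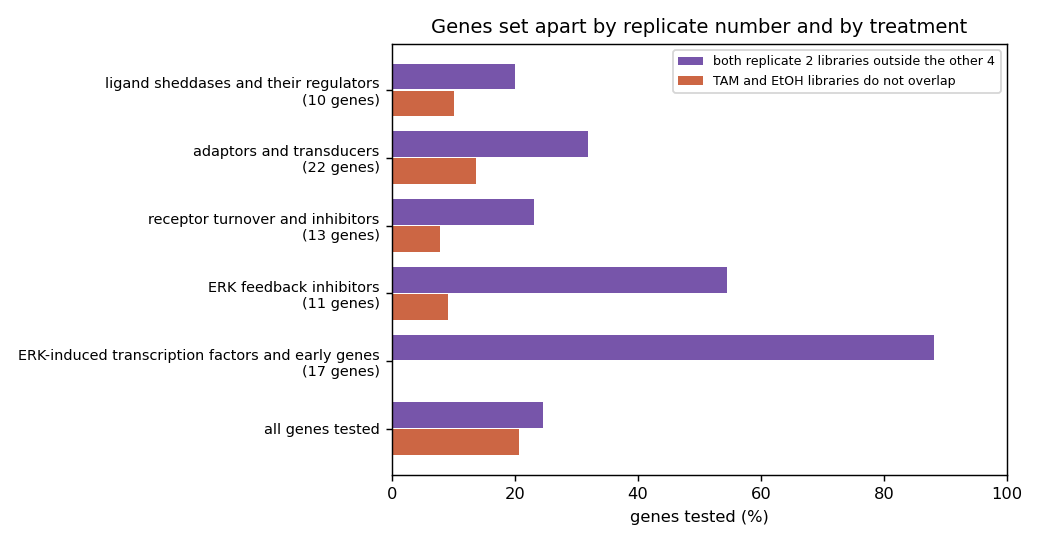
Share of tested genes (%) in each pathway list and over all genes whose replicate 2 samples both lay outside the other 4 (purple) or whose TAM and EtOH samples did not overlap (orange). The replicate share is 88.2% for early genes and 54.5% for ERK feedback inhibitors against 24.5% over all genes, and the treatment share is at or below 13.6% in these lists against 20.6%. A gene counted in purple cannot be counted in orange.

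The next genes were singled out from these lists after their values were seen. Dusp4, a phosphatase of ERK, had 56.8, 538 and 27.3 normalized counts in EtOH replicates 1 to 3 and 215, 1155 and 116 in TAM replicates 1 to 3. Its log2 difference was 1.68 (SE 1.22, limma adjusted p = 0.604), with an adjusted p = 0.0581 with the block, and TAM was higher in each pair. Fosl1, an AP-1 factor, had 79.4, 912 and 29.1 in EtOH replicates 1 to 3 and 153, 1132 and 104 normalized counts in TAM replicates 1 to 3. Its adjusted p was 0.794 and 0.220 with the block. Etv4, an ETS factor, and Phlda1 were higher with TAM in each pair as well, with log2 differences of 1.32 and 0.89 (limma adjusted p = 0.623 and 0.690 without the block, 0.106 and 0.157 with it). Of the 17 early genes, 3 (Fosl1, Etv4 and Phlda1) were higher and 1 (Ier2) was lower with TAM in all pairs, while 18.3% of all genes were higher and 23.6% lower. Leaving out 1 sample at a time moved the log2 difference of Dusp4 between 0.73 (without TAM replicate 2) and 2.93 (without EtOH replicate 2), that of Etv4 between 0.40 and 2.16 and that of Phlda1 between 0.08 and 1.59, the extremes falling at those same samples. Fos itself had 110, 1342 and 22.0 normalized counts in EtOH replicates 1 to 3 and 149, 241 and 112 in TAM replicates 1 to 3, with its highest value in EtOH replicate 2.

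**Figure D4:**
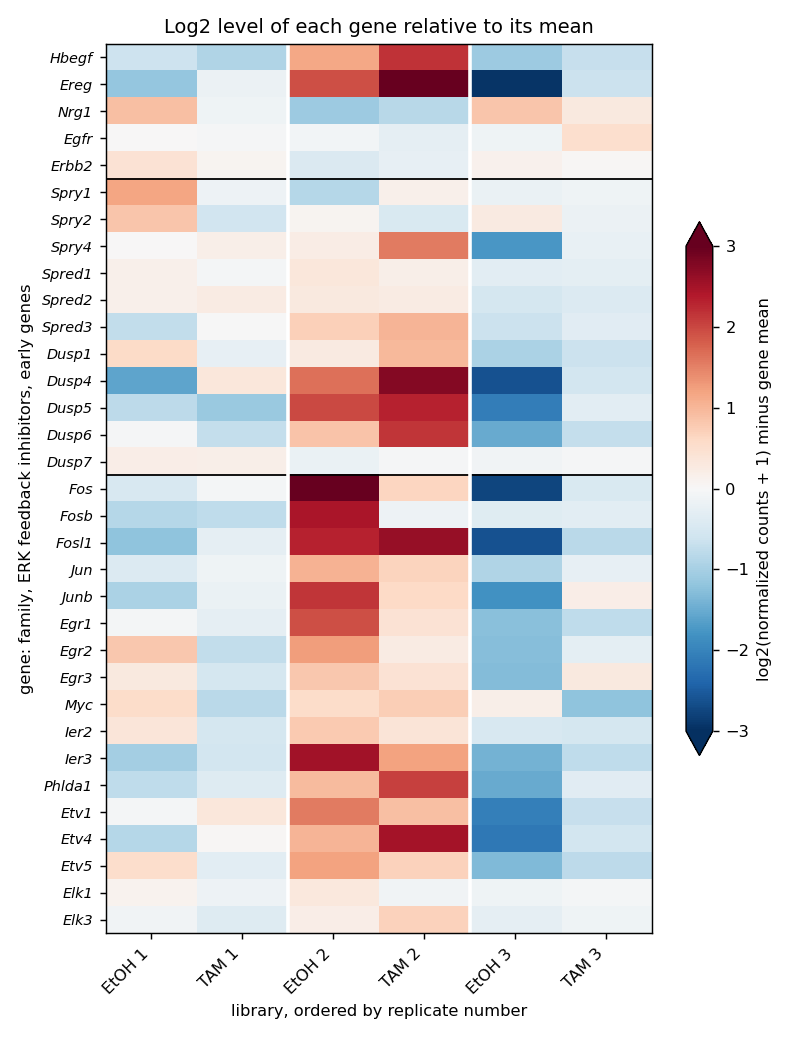
Log2(normalized counts + 1) minus the gene's mean (colour scale from −3 to 3) for the 5 tested members, 11 ERK feedback inhibitors and 17 early genes, with samples ordered by replicate number. The columns of replicate 2 are red for Hbegf, Ereg and most early genes and blue for Nrg1, and Egfr and Erbb2 are pale in all columns.

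Genes whose samples followed those of a member most closely were also chosen after the values were seen, by the root mean square difference of centred log2 values over the 6 samples. For Ereg these were Fosl1 (0.27), Dusp4 (0.34) and Dbc1 (0.50). For Hbegf they were Hmga2 (0.11), an architectural chromatin protein, Nes (0.17), an intermediate filament protein, and Epha2 (0.22), an ephrin receptor. For Nrg1 they were Hic1 (0.13), a transcriptional repressor, Marcks (0.17) and Gca (0.22). Hmga2 for example had 630.1, 1739 and 387 normalized counts in EtOH replicates 1 to 3 and 509, 3824 and 556 in TAM replicates 1 to 3.

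In 6 of the 75 pathway genes (8.0%) the TAM and EtOH samples did not overlap, against 20.6% of all genes. Genes set apart by replicate 2, 44.0% of the 75, cannot be among these 6. Ptpn1, a phosphatase of growth factor receptors, had 813, 665 and 645 normalized counts in EtOH replicates 1 to 3 and 1126, 1045 and 1195 in TAM replicates 1 to 3 (log2 difference 0.67, SE 0.17, limma adjusted p = 0.183). Spry2, an inhibitor of ERK signalling, had 3065, 1820 and 2072 in EtOH replicates 1 to 3 and 1150, 1249 and 1509 normalized counts in TAM replicates 1 to 3 (log2 difference −0.80, SE 0.24, limma adjusted p = 0.233). Neither passed the test, with or without the block. Mapk3, which encodes ERK1, lay lower in every TAM sample (log2 difference −0.86, SE 0.28, limma adjusted p = 0.268). The sheddase Adam9 (0.33, SE 0.18, adjusted p = 0.487), the RAS activator Sos2 (0.16, adjusted p = 0.698) and the phosphatase Ptpn11 (0.60, SE 0.26, adjusted p = 0.378) lay above EtOH in every TAM sample. Without both replicate 2 samples the log2 difference was −0.41 for Mapk3 (SE 0.15, adjusted p = 0.241) and 0.22 for Ptpn11 (SE 0.15, adjusted p = 0.460), each less than before by over 1.5 times. Adam17 and Adam10, the main sheddases of these ligands, overlapped between groups, from 878 to 1920 and from 1232 to 2507 normalized counts.

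Of the family members outside the 9, Egf and Nrg4 passed the filter. Egf had 24.3, 26.7 and 18.6 normalized counts in EtOH replicates 1 to 3 and 10.2, 15.9 and 19.4 in TAM replicates 1 to 3, and its groups overlapped. Nrg4 lay between 85.8 and 111 normalized counts in all 6 samples. Epgn, Nrg2 and Nrg3 stayed at or below 5.70 normalized counts, and Erbb4, the other receptor of neuregulins, was listed at 0 in every sample.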

How the data were processed

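The 6 MSF samples were grouped by their titles, 3 per group. The authors deposited 1 table with a normalized count (signal) for each gene and sample. Per the study's methods, reads were mapped to mm9 with TopHat, counted with htseq-count on RefSeq genes and normalized by TMM. The table itself does not state its normalization, versions and strand setting are not given in the sources used here, and values are not whole, so read counts and counting errors are unknown. Overlapping antisense genes could share reads (0.173% of Erbb2 exon bases).

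limma 3.58.1 in R 4.3.3 was fitted to log2(normalized counts + 1) with a mean-variance trend, keeping genes that reached 1 c.p.m. (16.2 normalized counts) in 3 or more samples. Fold changes of low genes are understated on this scale. Tests were two-sided, with Benjamini-Hochberg adjustment over 11877 genes and calls under 0.05. Same-numbered samples deviated together (r = 0.24, 0.29 and 0.42, against −0.31 to 0.04 for different numbers), so the replicate number was also fitted as a block. The fit was tested on simulated data with less spread between samples than Ereg or Hbegf had, so that test does not cover such genes. Exons and positions came from the mm9 annotation, and transcripts were compared with the genome by BLAST 2.17.0 (at least 95% identity over 100 bases). Python 3.11.15, pandas 2.3.3 and matplotlib 3.10.9 were used for tables and plots. Alternatives were other pseudocounts, filters and scalings, library weights, the block and leaving out samples.

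The members and lists were chosen with earlier results of these data known. Pathway genes were named where TAM and EtOH did not overlap, at most 3 per list by size of difference, or where called. The rule for genes most like a member asked for a member whose groups do not overlap, which none of the tested members met, so those genes, and Dusp4, Fosl1, Etv4, Phlda1, Fos, Adam17, Adam10, Egf and Nrg4, were chosen after values were seen. A planned marker gene is not reported here and was left out of its list.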

Additional observations from a re-analysis of the deposited data

How the results depend on the processing

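None of the members was called under any of the 15 alternatives. With library weights 2 pathway genes were called, Myc (log2 difference −1.40, limma adjusted p = 0.0379) and Ptpn1 (0.71, adjusted p = 0.0287), against none otherwise. Leaving out 1 sample at a time moved the log2 difference of Hbegf from −0.61 to 1.04, of Egfr from −0.09 to 0.30, of Erbb2 from −0.33 to 0.10 and of Fosl1 from −0.04 to 2.42. Directions turned for Hbegf without EtOH replicate 3 (−0.08) or TAM replicate 2 (−0.61), for Egfr without TAM replicate 3 (−0.086), for Erbb2 without EtOH replicate 1 (0.10) or TAM replicate 2 (0.003) and with library-size scaling (0.017), and for Fosl1 without EtOH replicate 3 (−0.04) or TAM replicate 2 (−0.03). The cause was not tested. Library-size scaling also moved the median of all genes by 0.11, from −0.03 to 0.08. Ereg stayed above 0 (0.32 to 2.78, lowest adjusted p = 0.131) and Nrg1 below 0 (−1.09 to −0.10, lowest adjusted p = 0.135) in all alternatives. The replicate block raised the calls over all genes from 29 to 192 and changed the call of no member or pathway gene. Values of Areg, Btc, Tgfa and Erbb3 are too low for a difference to be seen.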
